A study of Mus musculus with 8 samples.

Results

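H3K27ac regions were described at 8 genes of hepatic fatty acid oxidation and ketogenesis (Cpt1a, Cpt2, Acadm, Acadl, Hadha, Ehhadh, Bdh1 and Pdk4) in mouse primary hepatocytes (MPH) under acute endoplasmic reticulum stress (ERS). The genes were chosen by name, and for each one the H3K27ac regions at its transcription start sites (TSSs), in its gene body and within 50 kb of its TSSs were read from the deposited region lists. All 8 were matched in the annotation, among 21951 protein-coding genes, of which 9820 had a TSS in an H3K27ac region. Each of the 8 was among these 9820.

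MPH are hepatocytes isolated from liver and kept in culture, here in serum-free medium and from male adult wild-type mice of the C57Bl6 background. They were treated for 4 h with 1 µM thapsigargin, which blocks the calcium pump of the endoplasmic reticulum and so triggers ERS, or with the vehicle, 0.04% DMSO. Chromatin carrying acetylated lysine 27 of histone H3 (H3K27ac), which marks enhancers and promoters in use, was immunoprecipitated and sequenced. Each treatment had 3 H3K27ac libraries, from separate experiments, and 1 library of input DNA. The authors compared the treatments across regions, pairing libraries by experiment, and sorted regions into H3K27ac UP (higher in thapsigargin), H3K27ac DOWN (lower) and unchanged.

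The class is a call from that test at a false discovery rate of 0.05. A region counted as UP where at least 2 times as many of its bins were higher as lower, and as DOWN where that ratio was at most 0.5. Regions that passed the test with a ratio in between are in none of the lists, so a TSS outside the lists may still carry H3K27ac. The lists held positions without counts, signal or p-values. No value per library, size of change or error can therefore be given, the depth is unknown, and a class is the only measure of direction. An unchanged region is one that missed the threshold, which does not show equal H3K27ac. Since whole cultures were assayed, less H3K27ac per cell and fewer cells carrying it cannot be told apart.

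Fatty acids enter mitochondria as acylcarnitines, which are made by carnitine palmitoyltransferase 1 and turned back into acyl-CoA by carnitine palmitoyltransferase 2. Acyl-CoA dehydrogenases, hydratases, hydroxyacyl-CoA dehydrogenases and thiolases then shorten the chain by repeated rounds of β oxidation, and a separate set of enzymes does so in peroxisomes. In the fasted liver, part of the acetyl-CoA formed is turned into ketone bodies and exported. Many of these genes are targets of the nuclear receptor PPARα, which binds DNA with RXRα.

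The lists held 5508 UP, 3376 DOWN and 23312 unchanged regions, so that 17.1% of all 32196 regions were UP and 10.5% were DOWN. The study's code as printed tests DMSO relative to thapsigargin, so the direction of the classes was taken from the names of the lists. As a check of it, an UP region held a TSS of 10 of 10 ERS genes (such as Hspa5, Ddit3 and Herpud1). Of 10 hepatocyte markers 9 were matched by symbol (Tf was not), and all 9 had a TSS in a region, which was UP for Asgr1, DOWN for Apoa1, Fgb and Hnf4a and unchanged for the other 5. Of 15 markers of other liver cells, 12 had no TSS in a region, Stab2 and Cd68 had one in an unchanged region and Sox9 in an UP region. The part of other cells in the results was not tested.

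At the TSSs of the 8 genes lay 10 regions, of which 2 were UP, 2 DOWN and 6 unchanged. Pdk4 had its TSSs in an UP region and Hadha in a DOWN region. Acadm had a DOWN region at its first TSS and an UP region at a TSS inside the gene. Cpt1a, Cpt2, Acadl, Ehhadh and Bdh1 had TSSs in unchanged regions and in no other class. Among the 9820 protein-coding genes with a TSS in a region, an UP region held a TSS of 21.6%, a DOWN region one of 8.33% and an unchanged region one of 74.9%. Thus 2 of 8 genes were UP, 2 of 8 DOWN and 5 of 8 unchanged alone, numbers too small to set these genes apart from the other genes.

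**Figure D1:**
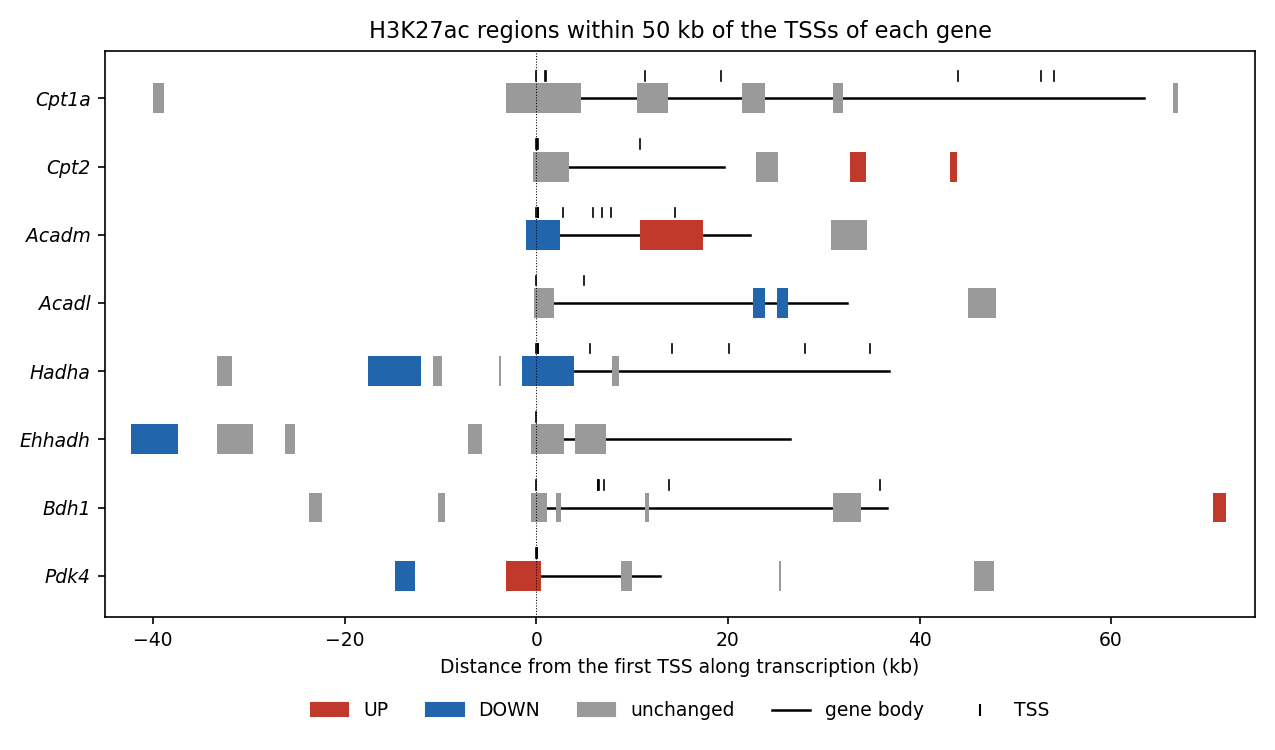
H3K27ac regions (boxes, coloured by class) within 50 kb of any TSS of each of the 8 genes, by distance in kb from the first TSS along the direction of transcription; black lines are gene bodies and ticks above them TSSs. Red UP boxes appear at Cpt2, Acadm, Bdh1 and Pdk4, blue DOWN boxes at Acadm, Acadl, Hadha, Ehhadh and Pdk4, and Cpt1a has grey boxes only.

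To show the DNA at the start of the 3 genes whose first TSS lay in a changed region, their promoters are given below as RefSeq holds them for GRCm38.p6, the build of the regions (mm10), from 250 bases before to 50 bases after the RefSeq start, with the transcribed bases in capitals.
Acadm promoter, chr3:153944594-153944893, minus strand: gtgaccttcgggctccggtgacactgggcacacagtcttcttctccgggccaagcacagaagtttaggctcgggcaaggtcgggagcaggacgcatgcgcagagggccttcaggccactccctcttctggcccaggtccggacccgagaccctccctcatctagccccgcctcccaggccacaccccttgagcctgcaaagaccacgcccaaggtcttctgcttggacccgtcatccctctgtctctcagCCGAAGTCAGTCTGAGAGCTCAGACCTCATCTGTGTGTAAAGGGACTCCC
Hadha promoter, chr5:30154931-30155230, minus strand: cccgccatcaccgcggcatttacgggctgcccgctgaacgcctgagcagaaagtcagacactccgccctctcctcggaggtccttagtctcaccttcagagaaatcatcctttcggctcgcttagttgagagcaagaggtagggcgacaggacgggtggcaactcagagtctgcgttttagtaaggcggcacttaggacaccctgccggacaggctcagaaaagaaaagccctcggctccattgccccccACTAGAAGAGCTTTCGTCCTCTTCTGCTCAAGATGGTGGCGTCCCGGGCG
Pdk4 promoter, chr6:5496229-5496528, minus strand: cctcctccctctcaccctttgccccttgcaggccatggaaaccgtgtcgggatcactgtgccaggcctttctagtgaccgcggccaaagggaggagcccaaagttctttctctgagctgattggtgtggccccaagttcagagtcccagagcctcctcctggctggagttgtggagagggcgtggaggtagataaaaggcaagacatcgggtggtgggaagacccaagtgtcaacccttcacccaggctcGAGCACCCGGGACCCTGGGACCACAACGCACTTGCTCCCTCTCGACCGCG
All 3 were richer in G and C than the median promoter (52.7% over 32851 promoters), at 62.3% for Acadm, 58.7% for Hadha and 60.7% for Pdk4. They held 13, 20 and 12 CpG dinucleotides, against a median of 7. Among the genes in unchanged regions, the first promoter of Bdh1 was the poorest in G and C (48.3%, 7 CpG) and that of Acadl the richest (70.3%, 34 CpG), so that base composition did not sort the promoters by class.

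Cpt1a, the liver form of carnitine palmitoyltransferase 1 and the rate-controlling step of fatty acid entry into mitochondria, lies on chromosome 19 (mm10 3322334 to 3385733, plus strand). Its first 3 TSSs lay in an unchanged region of 7791 bp that reached from 3123 bp upstream to 4667 bp downstream of the first one. A further TSS lay in an unchanged region of 3292 bp inside the gene, and the remaining 4 of its 8 TSSs lay in no listed region. Unchanged intronic regions of 2353 and 965 bp followed in the gene body. Outside it, within 50 kb, lay unchanged regions of 1097 bp at the TSSs of Ighmbp2 and Mrpl21 and of 538 bp at that of Tesmin. Cpt1a was the only one of the 8 with no UP or DOWN region within 50 kb, which held for 31.4% of the 9820 genes. Its nearest DOWN region was 95603 bp and its nearest UP region 343106 bp from the first TSS, against medians over genes of 140142 and 51935 bp. The region at its first TSS was wider than that of 96.4% of genes, each taken at its first TSS that lay in a listed region. Of the 330 genes whose region, taken in this way, was within 1.2-fold of that width, 47.9% were unchanged, 27.9% DOWN and 24.2% UP.

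Cpt2 encodes carnitine palmitoyltransferase 2 of the inner mitochondrial membrane (chromosome 4, 107903981 to 107923610, minus strand). An unchanged region of 3789 bp held 5 of its 6 TSSs, with 3387 bp downstream of the first and 401 bp upstream. No other listed region lay in the gene. Downstream of the gene lay 2 UP regions, of 1694 bp at the TSS of 0610037L13Rik and of 746 bp at the TSS of Magoh, which encodes a core protein of the exon junction complex. They began 32748 and 43211 bp from the first TSS of Cpt2. Both held the TSS of another gene, and neither overlapped Cpt2. An unchanged region of 2291 bp in 0610037L13Rik lay between them and Cpt2.

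Acadm, the medium-chain acyl-CoA dehydrogenase, had both an UP and a DOWN region in its body (chromosome 3, 153922357 to 153944632, minus strand). Its first 5 TSSs, spread over 190 bp and including all its protein-coding starts, lay in a DOWN region of 3522 bp (chr3:153942175-153945696). This region reached from 1064 bp upstream to 2457 bp downstream of the first TSS. Inside the gene, from 10792 bp after the first TSS, lay an UP region of 6652 bp (chr3:153927189-153933840) that covered exons and introns. It held the TSS of a non-coding transcript 14490 bp into the gene. The UP region covered 29.9% of the gene body and the DOWN region 11.0%. TSSs in both an UP and a DOWN region were found for 0.418% of the 9820 genes (41 genes), and both classes in the gene body for 4.74%. With protein-coding transcripts alone, or with RefSeq transcripts, Acadm counted at its TSSs as DOWN and no longer as UP. The only other listed region within 50 kb was an unchanged one of 3799 bp at Rabggtb, and the neighbours Msh4 and Slc44a5 had no TSS in a region.

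Acadl, the long-chain acyl-CoA dehydrogenase, had its first TSS in an unchanged region of 2012 bp (chromosome 1, gene at 66830839 to 66863277, minus strand). Deeper in the gene body lay 2 DOWN regions. The first, of 1231 bp, was intronic and began 22659 bp from the first TSS, and the second, of 1083 bp, began 25165 bp from it and covered exon and intron. Together they covered 7.13% of the gene body, against 5.55% for the unchanged region. An unchanged region of 2928 bp lay at the TSS of Kansl1l downstream. The nearest UP region lay 276094 bp away. Acadl thus differed in class between promoter and gene body, as Acadm did, but with DOWN regions in the body where Acadm had an UP region.

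**Figure D2:**
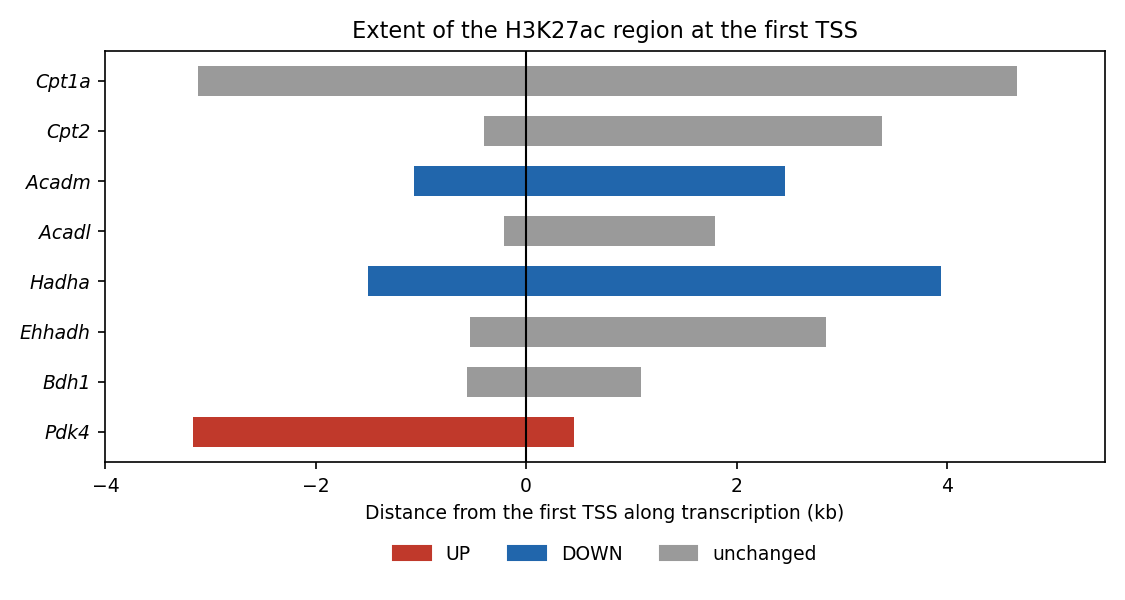
Extent of the H3K27ac region at the first TSS of each of the 8 genes, in kb from that TSS along the direction of transcription (vertical line), with colour for class. The region of Pdk4 lies mostly upstream, 3168 bp against 453 bp downstream, and those of the other 7 mostly downstream.

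Hadha encodes the α subunit of the mitochondrial trifunctional protein, which carries hydratase and hydroxyacyl-CoA dehydrogenase activity for long chains, and lies head to head with Hadhb, which encodes the β subunit with the thiolase (chromosome 5, Hadha at 30118304 to 30155162, minus strand). Their nearest TSSs were 86 bp apart. A single DOWN region of 5445 bp (chr5:30151221-30156665) held TSSs of both genes, so that the class cannot be assigned to either one of them. It reached 1503 bp upstream and 3941 bp downstream of the first Hadha TSS. A second DOWN region, of 5491 bp, lay in the body of Hadhb, 12065 bp upstream of Hadha. Unchanged regions of 771 bp in Hadha, of 210 and 919 bp in Hadhb and of 1625 bp further upstream, in no protein-coding gene, lay around these. No UP region lay within 50 kb, the nearest being 65368 bp away. Among the 599 genes with a region within 1.2-fold of 5445 bp at their first TSS in a listed region, 21.9% were DOWN.

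Ehhadh, the bifunctional hydratase and dehydrogenase of peroxisomal β oxidation, had its single TSS in an unchanged region of 3391 bp (chromosome 16, gene at 21761287 to 21787807, minus strand). An unchanged intronic region of 3278 bp lay 4013 bp into the gene. Upstream, 4 regions lay in Map3k13, which encodes a mitogen-activated protein kinase kinase kinase. The nearest 3 were unchanged (1497, 1056 and 3743 bp), and the farthest, a DOWN region of 4876 bp that held a TSS of Map3k13, began 37397 bp from Ehhadh. It was the only changed region within 50 kb of Ehhadh.

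Bdh1, the mitochondrial 3-hydroxybutyrate dehydrogenase that interconverts the main ketone bodies, had its first TSS in an unchanged region of 1652 bp (chromosome 16, gene at 31422280 to 31458901, plus strand). This was the narrowest region at a first TSS among the 8. The other 6 TSSs lay in no listed region, including 3 of protein-coding transcripts. Unchanged regions of 454, 345 and 2909 bp lay in the gene body, and others of 1350 and 777 bp upstream. An UP region of 1358 bp lay downstream, 70595 bp from the first TSS and 34759 bp from the last. No protein-coding gene had a TSS within 50 kb of those of Bdh1 (nor of those of Pdk4).

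Pdk4 encodes a pyruvate dehydrogenase kinase, which inactivates the pyruvate dehydrogenase complex and so spares glucose when fatty acids are burned. All 3 of its TSSs lay in an UP region of 3622 bp (chr6:5495856-5499477; gene at 5483351 to 5496309, minus strand). Only 12.5% of this region lay downstream of the first TSS, a share that was lower in 1.52% of genes, against a median of 65.8% over genes and 59.9 to 89.4% for the other 7 genes. For the background, each gene was taken at its first TSS that lay in a listed region. Further upstream, 12690 bp from the first TSS, lay a DOWN region of 2075 bp (chr6:5508999-5511073) that overlapped no protein-coding gene. The gene body held an unchanged region of 1158 bp, and unchanged regions of 238 and 2084 bp lay downstream. Along the direction of transcription, a DOWN region thus came before an UP region at both Pdk4 and Acadm, but the promoter lay in the UP region at Pdk4 and in the DOWN region at Acadm.

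In the gene bodies of the 8 genes lay 20 regions, 2 of them UP, 4 DOWN and 14 unchanged. An UP region overlapped the body of 2 genes (Acadm and Pdk4), against 31.2% of the 9820 genes, and a DOWN region that of 3 (Acadm, Acadl and Hadha), against 15.4%. Within 50 kb of the TSSs lay 41 regions, 5 UP, 7 DOWN and 29 unchanged. UP regions thus made up 12.2% of them, against 17.1% of all regions, and DOWN regions 17.1%, against 10.5%. An UP region lay within 50 kb of 4 genes (Cpt2, Acadm, Bdh1 and Pdk4), against 53.6% of the 9820, and a DOWN region within 50 kb of 5 (Acadm, Acadl, Hadha, Ehhadh and Pdk4), against 31.3%. Both classes were found near Acadm and Pdk4. Of the 12 changed regions 41.7% were UP, with a 95% Wilson interval of 19.3 to 68.0% that covers counting error only. Over all 8884 changed regions the share was 62.0%, which lies inside this interval. Each gene had 3 to 7 regions within 50 kb, where the median gene had 4, with quartiles of 3 and 7.

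**Figure D3:**
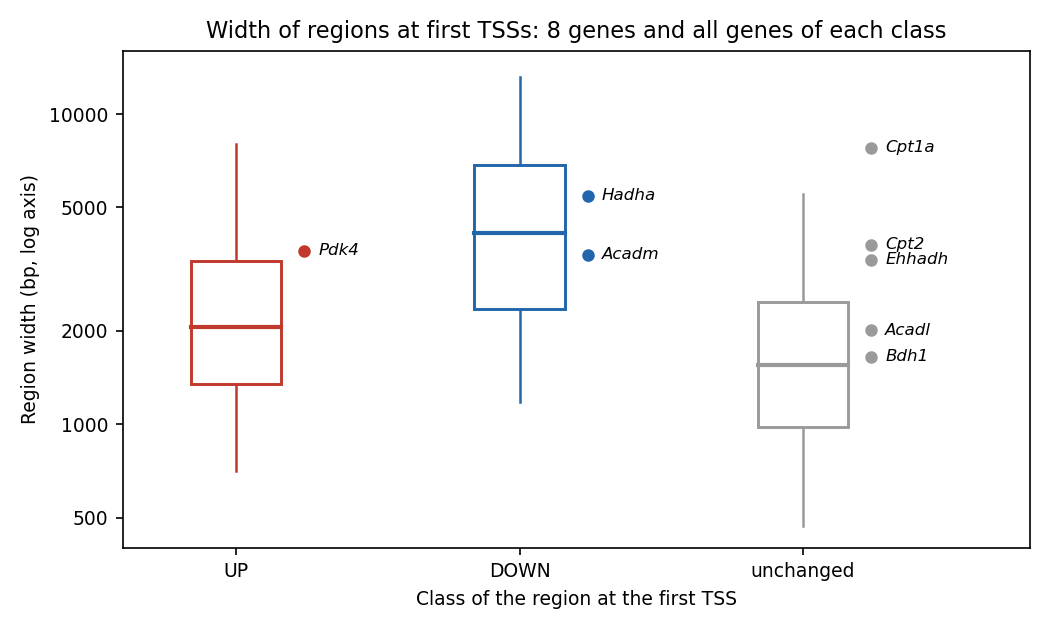
Width in bp (log axis) of the H3K27ac region at the first TSS of each of the 8 genes (points), beside all genes of that class (box, quartiles and median; whiskers, 5th to 95th percentile; 1994 UP, 683 DOWN and 7143 unchanged genes). All genes are taken at their first TSS that lay in a listed region. The point of Cpt1a, at 7791 bp, lies above the whisker of unchanged genes, and those of Hadha and Acadm lie within the box of DOWN genes.

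The regions at the first TSSs ran from 1652 to 7791 bp. Over all genes, widths were taken at the first TSS that lay in a listed region. The median width there was 2055 bp where the region was UP, 4137 bp where it was DOWN and 1554 bp where it was unchanged. Pdk4 (3622 bp) was above the upper quartile of UP genes (3366 bp), and Acadm (3522 bp) and Hadha (5445 bp) lay on either side of the DOWN median. All 5 unchanged regions were wider than the unchanged median. Those of Cpt1a, Cpt2 and Ehhadh were also above the upper quartile of 2474 bp. The widest of the 8 was thus an unchanged region and the narrowest as well.

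Motifs of factors of ERS and of fatty acid metabolism were then searched on both strands, as a description of the sequences. They were the direct repeat bound by PPARα and RXRα (2 copies of AGGTCA with 1 base between, at most 2 of 12 letters different), the motif of ATF4 (TGATGNAAT), that of ATF6 and XBP1 (TGACGTGG), the cyclic AMP response element (TGACGTCA), 2 D-box forms (TTATGTAA and TTACGTAA), a loose AP-1 motif (TGANTCA) and the E-box (CACGTG). N stands for any base, so the AP-1 form is wider than the usual TGACTCA and TGAGTCA. None of the 8 motifs was found in the 9 RefSeq promoters of the 8 genes, Bdh1 having 2. Over all 32851 promoters they were present in 3.86%, 0.965%, 0.676%, 1.79%, 0.938%, 0.119%, 7.81% and 7.15%, in the order given. A lack of matches says only that these letters do not occur in these windows.

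The longer changed regions did hold matches, and those for the direct repeat and for the motifs of ATF6 and XBP1 and of cyclic AMP responses are printed at Acadm and Pdk4, the genes with both classes nearby, with the match in capitals and the sequence read along the strand of the match.
Acadm UP region, ATF6/XBP1 motif, chr3:153932711-153932742, minus strand: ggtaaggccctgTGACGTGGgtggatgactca
Acadm UP region, cyclic AMP response element, chr3:153929714-153929745, plus strand: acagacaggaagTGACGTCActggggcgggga
Acadm DOWN region, direct repeat, chr3:153944957-153944993, minus strand: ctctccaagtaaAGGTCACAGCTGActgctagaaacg
Pdk4 UP region, ATF6/XBP1 motif, chr6:5496560-5496591, plus strand: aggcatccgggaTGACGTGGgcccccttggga
Pdk4 DOWN region, direct repeat, chr6:5509815-5509851, plus strand: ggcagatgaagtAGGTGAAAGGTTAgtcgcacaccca
Pdk4 DOWN region, direct repeat, chr6:5509896-5509932, plus strand: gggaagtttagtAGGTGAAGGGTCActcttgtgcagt
The ATF6 and XBP1 motif was thus present in the UP region of Acadm and in that of Pdk4, and in none of the other 3 UP regions within 50 kb of the 8 genes, which were shorter (746 to 1694 bp). It was present in 6.85% of the 438 regions within 10% of the width of the former and in 5.14% of the 1401 regions within 10% of the width of the latter. The cyclic AMP response element was present in 6.62% of the same 438 regions. Within 50 kb of the 8 genes it was in 1 UP, no DOWN and 2 unchanged regions. Over the lists it was in 3.40%, 2.90% and 2.71% of these classes. Direct repeats, each with 2 letters different, were present in 3 of the 7 DOWN regions: once at Acadm, at 2 places upstream of Pdk4 and at 3 in the body of Hadhb. The other 4 DOWN regions, both of Acadl, that at the TSSs of Hadha and that in Map3k13, held none, nor did the 5 UP regions. Of the 29 unchanged regions 9 held one. Over the lists, 43.4% of DOWN, 29.7% of UP and 24.0% of unchanged regions held one, so these counts do not set the 8 genes apart. The densest were the unchanged region in the body of Pdk4 (2.59 per kb) and one upstream of Bdh1 (1.48 per kb). In that of Pdk4, the matches starting at 5486796 and 5486803 overlap each other. Such loose repeats were common: they were present in 48.4%, 31.7% and 61.7% of regions of like width to the DOWN regions at Acadm, upstream of Pdk4 and in Hadhb. Over the lists they occurred at 0.183 per kb in UP, 0.223 in DOWN and 0.207 in unchanged regions. No match printed here overlapped a match of another motif. The AP-1 motif was searched with any base in the middle. Its counts thus include matches such as TGAATCA, the only match in the DOWN region at the TSSs of Hadha. In this loose form it was present in 2 of the 5 UP, 2 of the 7 DOWN and 14 of the 29 unchanged regions. Over the lists it was in 63.2%, 57.4% and 42.4% of these classes. The E-box was in 1, 1 and 10 of them, against 30.0%, 29.3% and 20.6%. The ATF4 motif was in 2 unchanged regions alone. The D-box form TTATGTAA was in 1 UP, 1 DOWN and 3 unchanged regions, against 8.19%, 11.4% and 5.87% over the lists. TTACGTAA was in none, against 0.617%, 1.24% and 0.635%. With so few regions, these counts do not set the 8 genes apart.

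The other genes of the pathway were read in the same way from lists by function. These lists were written with earlier results of these data known, so their shares are a description and not a test. Of 69 such genes, 62 had a TSS in a region, of which 6 had a TSS in an UP region (9.68%, against the 21.6% of all genes) and 8 in a DOWN region (12.9%, against 8.33%). For 48, TSSs lay in unchanged regions alone. Of the 14 genes with a TSS in a changed region, 7 shared the changed region with the TSS of another protein-coding gene (among them Hadhb with Hadha, Echs1 with Paox, Etfdh with 4930579G24Rik, Slc16a6 with Arsg, Fgf21 with Fut1 and Sirt3 with Psmd13), so that the class cannot be assigned to either gene of such a pair.

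The 10 genes of fatty acid uptake, binding and activation had no TSS in an UP or DOWN region, and 9 had TSSs in unchanged regions alone, among them Fabp1, Acsl1 and Slc27a5. At their TSSs the same held for the 11 genes of peroxisomal oxidation, 9 of them in unchanged regions alone, and for the 5 other kinases and phosphatases of pyruvate dehydrogenase. Away from TSSs some of these genes had changed regions. Of the uptake group, 5 of 10 genes had an UP region within 50 kb and 3 a DOWN region. These numbers were 5 and 2 of the 11 peroxisomal genes and 1 and 1 of the 5 kinases and phosphatases. Over the 9820 genes with a TSS in a region the shares were 53.6% and 31.3%. Cd36, for example, had 2 DOWN regions in its body, and Scp2 had a DOWN region within 50 kb of its TSSs. Acaa1a had 3 UP regions and no DOWN region within 50 kb.

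Among 8 genes of carnitine supply and shuttle, Crot, the peroxisomal carnitine octanoyltransferase, had a TSS in an UP region of 11775 bp, and the other 7 were unchanged. Of 15 further genes of mitochondrial β oxidation, 3 were UP and 3 DOWN. Among all 9820 genes with a TSS in a region, 21.6% had a TSS in an UP and 8.33% in a DOWN region. The UP regions were at Echs1, the short-chain enoyl-CoA hydratase (2623 bp), Acad11, an acyl-CoA dehydrogenase (3076 bp), and Eci2, an enoyl-CoA isomerase (4611 bp, with another TSS in an unchanged region). The DOWN regions were at Hadhb, in the region shared with Hadha, at Hadh, the hydroxyacyl-CoA dehydrogenase for shorter chains (1413 bp), and at Etfdh, which passes electrons from the dehydrogenases to ubiquinone (2394 bp). Acadvl and Acads, the very-long-chain and short-chain dehydrogenases, were unchanged. Of the acyl-CoA dehydrogenases Acadvl, Acadl, Acadm, Acads, Acadsb and Acad11, only Acadm had a DOWN region at a TSS. Acadm also had an UP region at another TSS.

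Of 7 genes of ketone body synthesis and export, Slc16a6, a monocarboxylate transporter, was DOWN (2470 bp) and 4 were unchanged, among them Acat1, the mitochondrial thiolase. Bdh2, a cytosolic dehydrogenase, had no TSS in a listed region. Since significant regions with a ratio between those of the UP and DOWN classes are not listed, the lists do not say whether its promoter carried H3K27ac. The same holds for Cd36, Acaa1b, Abcd2, Pdk3 and Ppargc1a, which also had no TSS in a listed region.

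Of 13 regulators and secreted targets, 2 were UP and 4 DOWN, against 21.6% and 8.33% of the 9820 genes. Whether the group differs from all genes was not tested. The UP regions were at Fgf21, a fasting and stress hormone (2187 bp), and at a TSS of Rxra (6016 bp), which also had TSSs in unchanged regions, the widest of 15844 bp. The DOWN regions were at Angptl4, a secreted inhibitor of lipoprotein lipase (12320 bp), Lpin1, a phosphatidate phosphatase and coactivator (8022 bp), Creb3l3, a liver transcription factor of the endoplasmic reticulum membrane (3903 bp), and Sirt3, the mitochondrial deacetylase (3471 bp). Ppara itself had its TSS in an unchanged region, with 2 UP and no DOWN regions within 50 kb.

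**Figure D4:**
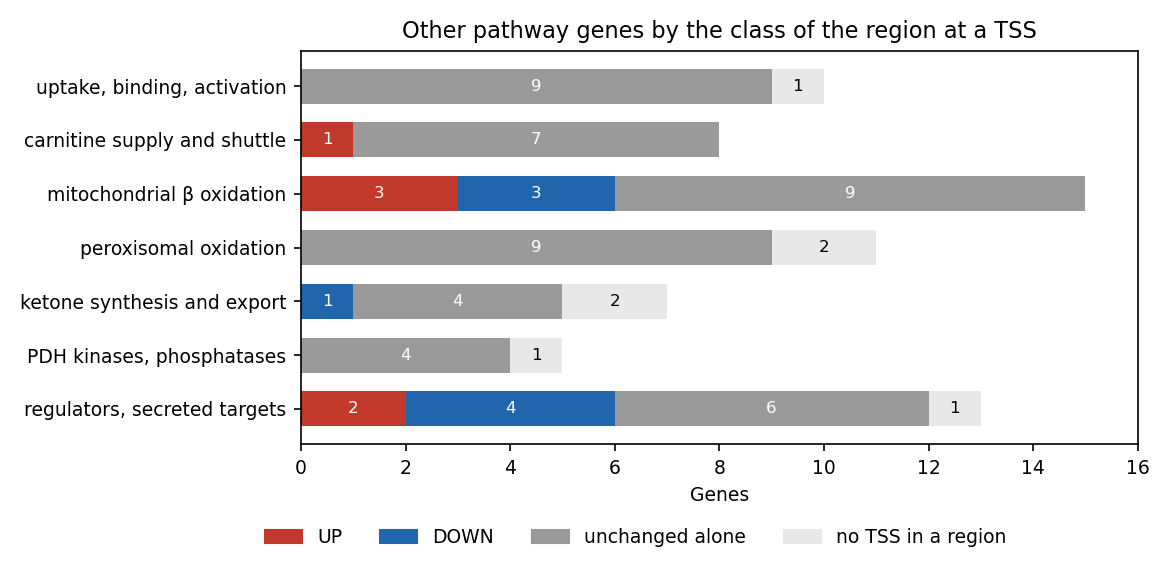
Number of the 69 other pathway genes in each functional group (bars) by the class of region that holds a TSS: UP, DOWN, unchanged alone or none listed. UP and DOWN genes lie in the groups of mitochondrial β oxidation (3 and 3 of 15) and of regulators and secreted targets (2 and 4 of 13), besides 1 UP gene of the carnitine group and 1 DOWN gene of the ketone group. Of all 9820 genes with a TSS in a region, 21.6% were UP and 8.33% DOWN.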

How the data were processed

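H3K27ac ChIP-seq was performed on 6 H3K27ac and 2 input libraries. The authors' processing comprised mapping with Bowtie to mm10, removal of duplicates and blacklisted regions, broad peak calling with MACS2 on pooled libraries and a csaw analysis of bins of 150 bp with reads extended to 200 bp, filtered against input, loess normalized and paired by experiment. The deposited lists hold the start and end of each region in base pairs, with no measured value. As printed, the study's code tests DMSO relative to thapsigargin, the opposite of UP as higher in thapsigargin. The direction was taken from the list names and checked at ERS genes, which thapsigargin is known to induce.

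TSSs were those of every transcript in GENCODE release M21. A region counted at a TSS, or in a gene body, where they shared at least 1 bp. The nearest distance from a region to any TSS of the gene set membership within 50 kb. No test was run, since the lists hold no values per library. Counts were read against protein-coding genes with a TSS in any region, and the code was tested on simulated data. Motifs were searched with numpy 2.4.6 and pysam 0.24.0 in sequence of GRCm38.p6. The genes, lists and motifs were chosen with earlier results of these data known. The text names all 8 genes with every region within 50 kb, other pathway genes with a changed or no region at a TSS, and neighbours with a TSS in the same region or in a changed one; some items of the pathway lists are not reported here by name, and unchanged pathway genes and other neighbours were named after their values were seen. Alternatives were other TSS sets, overlaps, windows, widths and assignments to genes.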

Additional observations from a re-analysis of the deposited data

How the results depend on the processing

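Of 99 values recomputed under alternatives, 49 were identical, 23 differed by at most 1.5-fold (for the share of changed regions that were UP, within its Wilson interval) and 27 moved by more. The genes with a TSS in an UP region went from 2 to 1 with protein-coding transcripts alone, with RefSeq transcripts (both without Acadm) and where at least 500 bp of the region were required both before and after a TSS (without Pdk4). With the centre of the region in the gene body, UP regions there went from 2 to 1. Within 10 kb of the TSSs lay 2 UP, 2 DOWN and 17 unchanged regions, and 3 UP, 4 DOWN and 18 unchanged regions within 50 kb had the gene as their nearest protein-coding one. No paired analysis was possible because the lists hold no values per library, and for that reason leaving out each replicate was not run. Since depth and signal are unknown, a region may be unchanged because the change was small or because it could not be detected.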
